A study of Homo sapiens with 12 samples.

Results

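The EGF family ligands are secreted growth factors that activate the ERBB receptor tyrosine kinases, and 7 of their genes were followed here in A375 cells: AREG, EREG, HBEGF, TGFA, BTC, EGF and NRG1. They were taken by symbol from the deposited expression table, and each was listed on 1 of its 31585 distinct loci. These 7 genes and the gene lists used below were chosen with earlier results of these data known. Of the 7, 4 (NRG1, HBEGF, AREG and TGFA) reached an FPKM of 1 in 3 or more libraries and entered the main test, whereas EREG, BTC and EGF did not reach that level in any library. FPKM counts fragments relative to the length of the transcript and to the number of mapped fragments, so levels of different genes can be compared on it.

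Each ligand is made as a membrane-anchored precursor, and ADAM proteases release the active growth factor. Amphiregulin, TGF-alpha and EGF bind EGFR, whereas HB-EGF, epiregulin and betacellulin bind EGFR and ERBB4, and neuregulin-1 binds ERBB3 and ERBB4. ERBB2 has no ligand of its own and is the preferred partner of the other receptors. AREG is a known transcriptional target of YAP in epithelial cells, and neuregulin-1 acting through ERBB3 is a known survival signal in melanoma cells.

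The 12 libraries come from 4 stable derivatives of A375, a cell line from a human melanoma, with 3 libraries each, to ask which genes depend on YAP and on its binding to TEADs. Control cells carried the empty retroviral vector MSCV-IRES-Hygro, and the other cells carried it with YAP-S127A, YAP-S94A,S127A or YAP-2SA. All 4 derivatives had been selected with hygromycin, and all were derived from A375 cells that express GFP. No more than 1 transduced population of each is described. The 3 libraries of a group are therefore taken to measure the spread between samples of a population and not between transductions. Cells were cultured for 24 h according to the sample records, while the study's methods give a longer time. S127A removes a LATS phosphorylation site that holds YAP in the cytoplasm, and S94A removes TEAD binding. YAP-2SA carries S127A and S381A according to the sample titles, and the second site controls degradation of the protein. One field of the YAP-2SA records also lists S94A, which the titles do not.

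The depth of the libraries is unknown because the table holds no counts, and each library had from 20161 to 20656 loci above 0. YAP1, the gene that the vectors carry, was at 34.1 and 33.0 FPKM in Control replicates 1 and 2, at 172 FPKM in Control replicate 3, and between 130 and 187 FPKM in the 9 libraries with a YAP construct. The library labelled Control replicate 3 therefore went against its label for YAP1, and results against Control are also given without it. Of 7 melanocytic genes, SOX10 (234 to 281 FPKM), S100B and MITF were expressed in Control, whereas the pigment genes PMEL, MLANA, TYR and DCT were at or below 0.58 FPKM in every library. Values of 2 leukocyte genes summed to at most 0.0762 FPKM and those of 2 endothelial genes to at most 0.202 FPKM.

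Differences were tested with limma on log2(FPKM + 1) across 15055 loci, and a gene was called when its p, adjusted by the method of Benjamini and Hochberg, was under 0.05 and its mean FPKM differed more than 2-fold between the groups. Log2 fold changes are differences of log2(FPKM + 1), a scale on which changes at low levels look smaller than they are, and folds are ratios of mean FPKM. With 3 libraries in each group, a permutation test (exact, two-sided) gives at best p = 0.1, and it gave that value wherever groups are said not to overlap.

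In YAP-2SA cells, NRG1, HBEGF and AREG rose and TGFA fell against Control, 4 of the 4 ligands tested, where 15.5% of all loci tested were called, 7.59% as higher and 7.86% as lower. In YAP-S127A cells 1 of the 4, NRG1, was called, and as higher, at a background of 2.47%, or 2.07% for higher calls. In YAP-S94A,S127A cells limma called none of the 4 at a background of 0.173%, and TGFA alone had an unadjusted p under 0.05. NRG1 and AREG passed the filter on low values only through libraries with YAP-2SA or YAP-S127A, so their presence among the genes tested already depends on these groups.

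**Figure D1:**
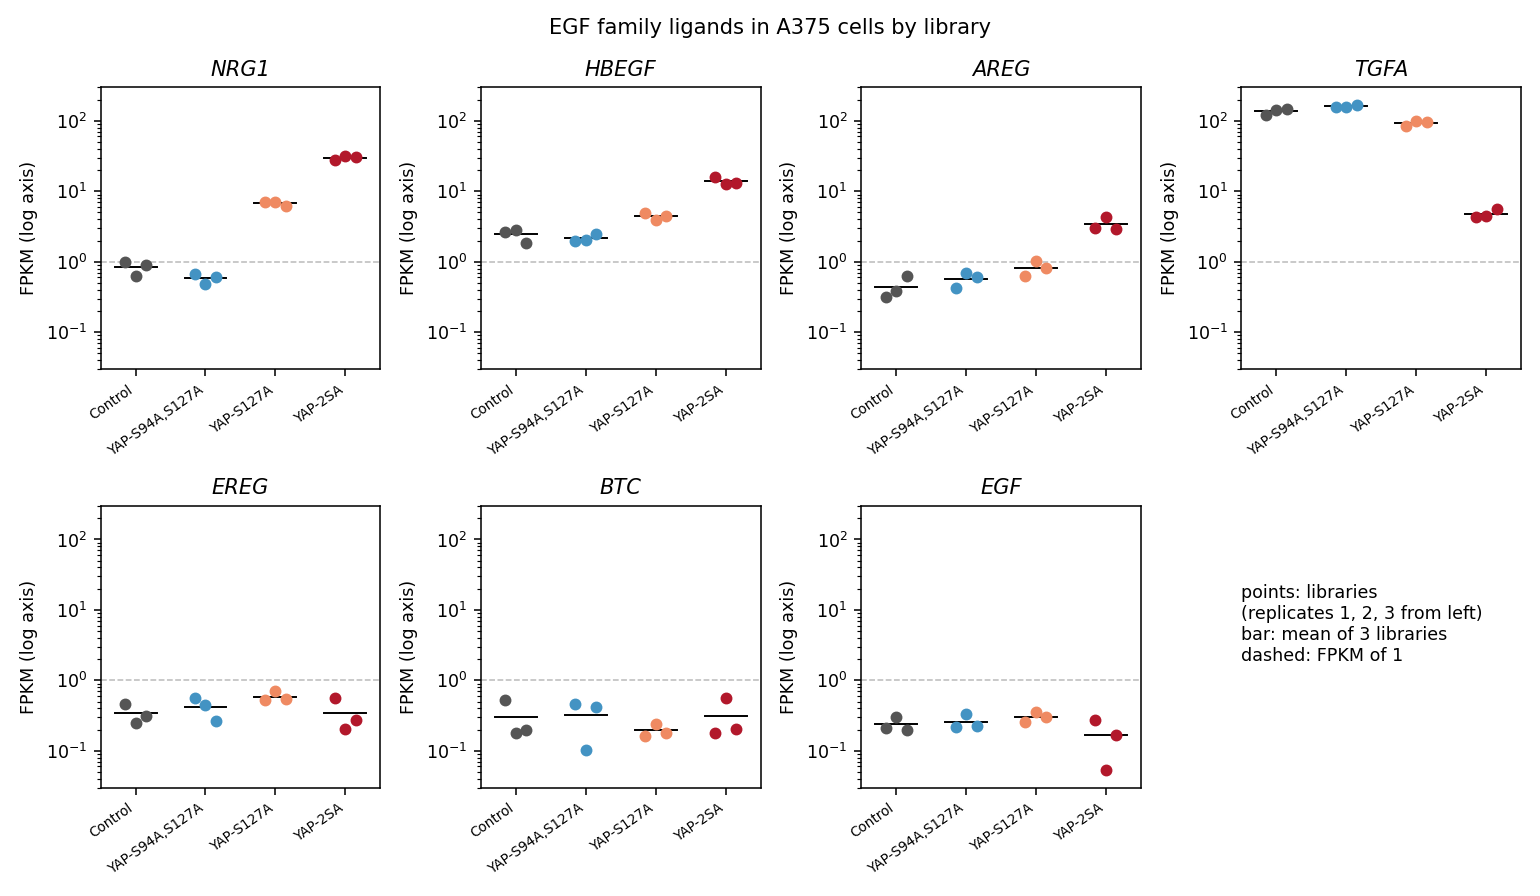
Each panel shows 1 ligand gene, with FPKM on a log axis against the 4 groups of A375 cells. Points are libraries, bars are means of 3 libraries, and the dashed line is an FPKM of 1. NRG1, HBEGF and AREG are highest in the 3 YAP-2SA libraries and TGFA is lowest there, whereas EREG, BTC and EGF stay at or below 0.697 FPKM.

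TGFA encodes TGF-alpha, a ligand of EGFR that many melanomas produce, and lies on chromosome 2 at 70674416 to 70781325 of GRCh37 on the reverse strand. Its FPKM was 121, 142 and 147 in Control replicates 1, 2 and 3. In YAP-S94A,S127A cells it was 155, 157 and 169, and in YAP-S127A cells it was 85.9, 100 and 96.5. In YAP-2SA cells it was 4.37, 4.51 and 5.52, so that none of the 4 groups overlapped another.

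TGFA was thus the ligand with the highest level in Control, YAP-S94A,S127A and YAP-S127A cells, and it fell 28.4-fold in YAP-2SA cells. The log2 fold change of YAP-2SA against Control was -4.57 (SE 0.10, limma adjusted p = 1.9e-10), and without Control replicate 3 it was -4.51 (adjusted p = 4.6e-09). TGFA was 19.6-fold lower in YAP-2SA than in YAP-S127A cells, with a log2 fold change of -4.04 (SE 0.10, limma adjusted p = 8.6e-10). In YAP-S127A cells TGFA was 1.45-fold below Control, short of the 2-fold threshold, with a log2 fold change of -0.53 (SE 0.10, limma adjusted p = 0.0083). That adjusted p was 0.0372 without Control replicate 3 and 0.0511 when only the 6 libraries compared were fitted. In YAP-S94A,S127A cells the log2 fold change of TGFA against Control was 0.23 (95% confidence interval 0.02 to 0.45, limma adjusted p = 1). The constructs with and without TEAD binding, YAP-S127A and YAP-S94A,S127A, differed in TGFA by -0.76 (SE 0.10, limma adjusted p = 6.5e-04), a 1.70-fold difference that also misses the fold threshold.

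NRG1 encodes neuregulin-1, the ligand of ERBB3 and ERBB4, and lies on chromosome 8 at 31496738 to 32713184 of GRCh37 on the forward strand. It was below 1 FPKM in every Control library, at 0.997, 0.62 and 0.892. In YAP-S94A,S127A cells its FPKM was 0.662, 0.479 and 0.609, which overlaps Control. In YAP-S127A cells it was 7.16, 7.04 and 6.19, and in YAP-2SA cells it was 27.7, 31.3 and 30.8. Both groups lie above Control without overlap, and YAP-2SA lies above YAP-S127A.

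NRG1 rose 35.8-fold in YAP-2SA cells (log2 fold change 4.08, SE 0.10, limma adjusted p = 4.2e-10) and 8.13-fold in YAP-S127A cells (2.09, SE 0.10, limma adjusted p = 8.5e-07). Without Control replicate 3 the log2 fold changes were 4.10 (limma adjusted p = 1.1e-08) and 2.11 (limma adjusted p = 9.8e-06). The difference between YAP-2SA and YAP-S127A cells was itself called, at 4.4-fold (limma adjusted p = 1.3e-07). NRG1 was 11.7-fold higher with YAP-S127A than with YAP-S94A,S127A (log2 fold change 2.30, SE 0.10, limma adjusted p = 3.7e-07). YAP-S94A,S127A and Control differed by -0.21 (95% confidence interval -0.42 to 0.00, limma adjusted p = 1). Among the 4 tested ligands, only NRG1 was called higher in YAP-S127A cells than in Control.

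HBEGF encodes HB-EGF, a heparin-binding ligand of EGFR and ERBB4, and lies on chromosome 5 at 139712428 to 139726188 of GRCh37 on the reverse strand. Its FPKM was 2.64, 2.85 and 1.86 in Control and 1.97, 2.05 and 2.48 in YAP-S94A,S127A cells, 2 groups that overlap. It was 4.92, 3.86 and 4.49 in YAP-S127A cells and 15.9, 12.6 and 13.3 in YAP-2SA cells. Each of these groups lies above the other groups named before it.

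HBEGF rose 5.69-fold in YAP-2SA cells against Control (log2 fold change 2.12, SE 0.13, limma adjusted p = 3.9e-07), and the log2 fold change was 1.99 without Control replicate 3 (limma adjusted p = 1.4e-06). It was 3.15-fold higher in YAP-2SA than in YAP-S127A cells (limma adjusted p = 1.3e-05). In YAP-S127A cells HBEGF was 1.81-fold above Control, under the fold threshold, with a log2 fold change of 0.66 (SE 0.13, limma adjusted p = 0.0142, and 0.0449 without Control replicate 3). Against YAP-S94A,S127A cells the same libraries were 2.04-fold higher (log2 fold change 0.78, SE 0.13, limma adjusted p = 0.00429), just past the threshold. That call was lost without YAP-S127A replicate 1 (log2 fold change 0.71) and without YAP-S94A,S127A replicate 1 (0.73) or 2 (0.75), where the ratio fell under 2. It was also lost when the fold was read on the log2(FPKM + 1) scale. The interval of YAP-S94A,S127A against Control was -0.41 to 0.18 (limma adjusted p = 1).

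AREG encodes amphiregulin, a ligand of EGFR, and lies on chromosome 4 at 75310853 to 75320722 of GRCh37 on the forward strand. Its FPKM was 0.314, 0.386 and 0.621 in Control, 0.428, 0.683 and 0.613 in YAP-S94A,S127A cells, and 0.618, 1.04 and 0.805 in YAP-S127A cells. These 3 groups overlap. In YAP-2SA cells it was 3.03, 4.27 and 2.88, above every other library.

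AREG rose 7.71-fold in YAP-2SA cells against Control (log2 fold change 1.60, SE 0.14, limma adjusted p = 6.9e-06), and without Control replicate 3 the log2 fold change was 1.69 (limma adjusted p = 2.3e-05). With 0.1 in place of 1 added to the FPKM the log2 fold change was 2.71, as the scale weighs heavily on a gene at this level. AREG was also 4.13-fold higher in YAP-2SA than in YAP-S127A cells (limma adjusted p = 7.1e-05). The log2 fold change of YAP-S127A against Control was 0.34 (95% confidence interval 0.02 to 0.66, limma adjusted p = 0.229), and that of YAP-S127A against YAP-S94A,S127A was 0.21 (-0.11 to 0.53, limma adjusted p = 0.423). The GRCh37 annotation holds a near-identical copy, AREGB, at 75480629 to 75490486 on chromosome 4. Of the 50-base words in the longest AREG transcript, of 1234 bases, 95.8% also occur in AREGB. AREGB has no locus of its own in the table, and how reads shared by the copies were assigned is not given in the sources used here, so the AREG level is uncertain.

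EREG, BTC and EGF, which encode epiregulin, betacellulin and EGF, were near the bottom of the measured range and did not pass the filter on low values. EREG was at 0.454, 0.25 and 0.313 FPKM in Control, 0.562, 0.206 and 0.271 in YAP-2SA, 0.524, 0.697 and 0.546 in YAP-S127A, and 0.557, 0.449 and 0.266 in YAP-S94A,S127A cells. The YAP-S127A libraries of EREG lie above those of Control without overlap (two-sided exact permutation p = 0.1, the smallest that 3 against 3 allows), and the YAP-2SA libraries overlap Control. BTC ranged from 0.103 to 0.563 FPKM over the 12 libraries and EGF from 0.0526 to 0.35 FPKM. Both genes overlapped between all 4 groups. In a limma fit without that filter, over 23437 loci, none of the 3 genes was called in any of the 6 comparisons (adjusted p of at least 0.13, with 3 of 18 unadjusted p under 0.05), and the 95% confidence intervals of their log2 fold changes lay within -0.49 to 0.49. The scale of log2(FPKM + 1) compresses differences at these levels, so the intervals bound differences on that scale and not the ratio of FPKM.

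The order of the ligands by mean FPKM differed between the groups. In Control it ran from TGFA (137 ± 13.9, SD, n = 3) to HBEGF (2.45 ± 0.521) and NRG1 (0.836 ± 0.195). NRG1, AREG, EREG, BTC and EGF each overlapped the next in that order. In YAP-2SA cells NRG1 led (29.9 ± 1.99), followed by HBEGF (13.9 ± 1.77), TGFA (4.80 ± 0.628) and AREG (3.39 ± 0.763), and none of these 4 overlapped its neighbour. In YAP-S127A cells the order was TGFA (94.2 ± 7.4), NRG1 (6.80 ± 0.531), HBEGF (4.42 ± 0.532) and AREG (0.822 ± 0.213), so NRG1 stood above HBEGF as in YAP-2SA cells, while TGFA still led. In YAP-S94A,S127A cells TGFA led (160 ± 7.5) and HBEGF came next (2.17 ± 0.273), as in Control.

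As a share of the summed FPKM of the 7 genes, TGFA made up 95.9 to 97.3% in Control and 97.3 to 97.4% in YAP-S94A,S127A cells. It made up 86.3 to 88.5% in YAP-S127A cells and 8.40 to 10.4% in YAP-2SA cells. In YAP-2SA cells NRG1 held 53.2 to 58.5%, HBEGF 23.5 to 30.7% and AREG 5.42 to 7.98%. NRG1, whose receptors are ERBB3 and ERBB4, was thus the most abundant ligand transcript there. In single libraries, the FPKM of NRG1 was 0.00438 to 0.00826 of that of TGFA in Control, 0.0642 to 0.0834 of it in YAP-S127A cells, and 5.58 to 6.95 times it in YAP-2SA cells.

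The summed FPKM of the 7 ligands was 126 to 151 in Control, 159 to 173 in YAP-S94A,S127A, 99.5 to 113 in YAP-S127A and 52.0 to 53.5 in YAP-2SA cells. For the 6 ligands that bind EGFR the sum was 125 to 150 in Control and 22.2 to 24.4 in YAP-2SA cells. TGFA alone set that direction. Without it, the 5 remaining ligands of EGFR summed to 3.19 to 4.15 FPKM in Control, 3.63 to 3.99 in YAP-S94A,S127A, 6.19 to 6.48 in YAP-S127A and 16.8 to 20.0 in YAP-2SA cells.

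**Figure D2:**
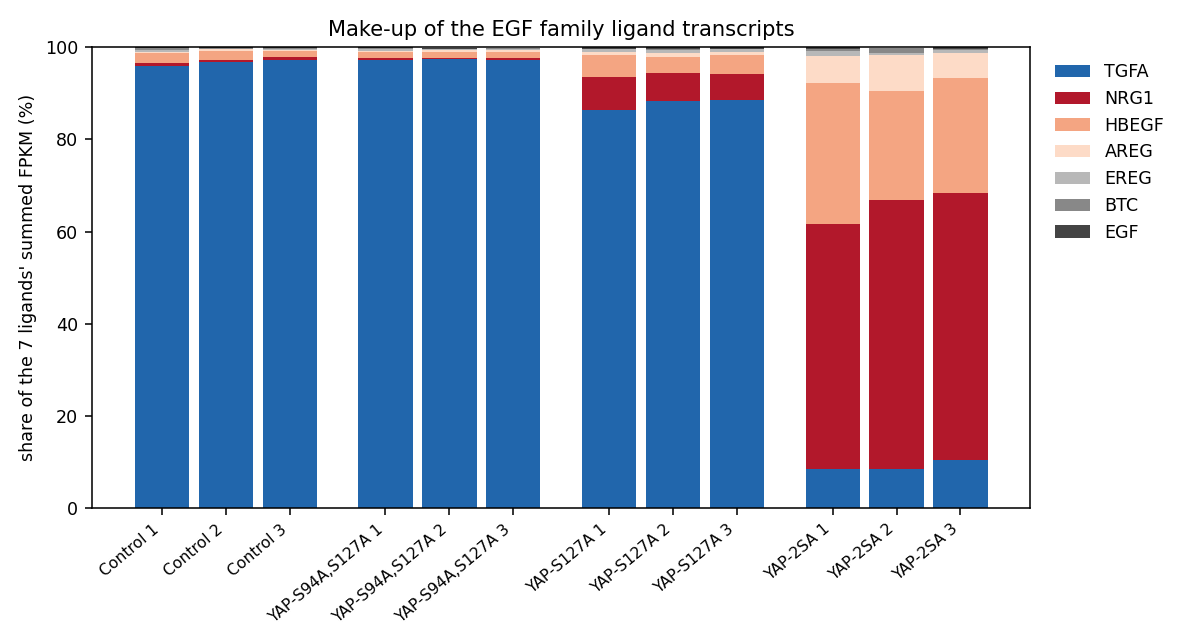
Each bar is 1 library, divided into the share in percent that each of the 7 ligand genes takes of their summed FPKM. TGFA takes at least 86.3% in the Control, YAP-S94A,S127A and YAP-S127A libraries and at most 10.4% in the YAP-2SA libraries, where NRG1 takes 53.2 to 58.5%.

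Promoter sequences are shown for the 2 ligands of EGFR that rose and for the one that fell, and for the 2 members whose window holds the core motif of TEADs. RefSeq promoter windows, on GRCh38.p14 and not on the build of the expression table, run from 250 bases before a start site to 50 after it, and 7 windows of 6 members were used. The NRG1 window was not used here. Windows were searched on both strands for the TEAD core CATTCC and the AP-1 site TGANTCA. The cyclic AMP response element TGACGTCA, searched on both strands, and the TATA box TATAAA, on the forward strand, were added after the sequences were seen. The lines give the 250 bases before the start, 5′ to 3′ on the strand of the gene, with these motifs in capitals. AREG is at chr4:74444886-74445135 on the forward strand, HBEGF at chr5:140346604-140346853 on the reverse strand, and the more upstream of 2 windows of TGFA at chr2:70553827-70554076 on the reverse strand.
AREG: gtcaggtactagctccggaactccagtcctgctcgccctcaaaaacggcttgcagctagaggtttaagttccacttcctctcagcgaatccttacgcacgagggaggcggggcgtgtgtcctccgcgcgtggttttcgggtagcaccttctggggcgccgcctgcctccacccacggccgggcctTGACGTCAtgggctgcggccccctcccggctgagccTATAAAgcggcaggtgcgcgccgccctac
HBEGF: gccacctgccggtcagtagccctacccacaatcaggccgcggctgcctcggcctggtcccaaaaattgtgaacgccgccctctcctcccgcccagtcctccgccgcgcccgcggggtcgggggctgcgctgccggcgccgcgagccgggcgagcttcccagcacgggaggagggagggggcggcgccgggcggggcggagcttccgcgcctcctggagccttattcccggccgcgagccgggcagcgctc
TGFA: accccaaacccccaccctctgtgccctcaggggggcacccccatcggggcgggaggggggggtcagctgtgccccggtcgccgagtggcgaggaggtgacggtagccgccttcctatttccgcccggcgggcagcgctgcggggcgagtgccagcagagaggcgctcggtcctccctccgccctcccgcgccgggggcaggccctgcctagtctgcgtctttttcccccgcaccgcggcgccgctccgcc

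The AREG window holds TGACGTCA at bases -65 to -58 from the start and TATAAA at -29 to -24, the EREG window also holds TATAAA, at -32 to -27, and none of the 4 motifs was found in the HBEGF window or in either window of TGFA. The TEAD core was found in the windows of EREG and EGF, 2 ligands that stayed below 1 FPKM in every library. The stretches that hold it are bases -200 to -151 of EREG, at chr4:74364945-74364994, and bases -50 to -1 of EGF, at chr4:109912833-109912882, both on the forward strand of GRCh38.p14. In EGF the AP-1 site TGAGTCA and the TEAD core share bases, so the capitals run through both.
EREG: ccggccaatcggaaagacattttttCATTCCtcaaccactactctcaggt
EGF: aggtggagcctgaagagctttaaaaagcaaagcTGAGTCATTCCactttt

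Of 35116 RefSeq windows of this length, 14% hold CATTCC, 7.71% hold TGANTCA, 1.85% hold TGACGTCA and 7.33% hold TATAAA. A match is a run of letters and not a measured site, and no match says only that these letters are not in this window.

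EREG, AREG and BTC lie in the same region of chromosome 4 as EPGN, which encodes the ligand epigen. On GRCh37 the gap is 48.4 kb between EPGN and EREG and 56.4 kb between EREG and AREG. AREGB lies between AREG and BTC, with a gap of 160 kb to AREG and of 179 kb to BTC. Within 1 Mb of EREG 18 annotated genes are in the table under their annotated symbol, and a gene listed under another name would be missed. Of the 18, 6 are listed at 0 in every library, EPGN among them. Of these 18, 4 were tested. AREG was called higher in YAP-2SA cells, and CXCL3, a chemokine gene, was called lower (log2 fold change -1.24, SE 0.22, limma adjusted p = 0.00118). CXCL1 (0.25, limma adjusted p = 0.189) and MTHFD2L (0.06, limma adjusted p = 0.791) were not called. Over all loci tested, 7.59% were called higher and 7.86% lower, and AREG was among the 4 only because YAP-2SA and YAP-S127A libraries took it past the filter. CXCL3, at a mean of 1.88 FPKM in Control and 0.171 in YAP-2SA cells, passed it only through libraries of groups other than YAP-2SA.

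The receptors of these ligands differed between the groups as well, with EGFR higher and ERBB3 lower in YAP-2SA cells. EGFR, the receptor of 6 of the 7 ligands, was at 3.35, 5.16 and 5.08 FPKM in Control and at 35.8, 45.2 and 45.1 FPKM in YAP-2SA cells. It rose 9.28-fold (log2 fold change 2.97, SE 0.18, limma adjusted p = 3.7e-07), while its ligand TGFA fell. In YAP-S127A cells EGFR was at 16.6, 13.1 and 10.9 FPKM and rose 2.99-fold (1.40, SE 0.18, limma adjusted p = 0.00108). In YAP-S94A,S127A cells its log2 fold change against Control was 0.04 (95% confidence interval -0.37 to 0.45). The EGFR locus also lists the transcript GU228584.

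ERBB3, a receptor of neuregulin-1, was at 105, 114 and 126 FPKM in Control and at 4.29, 6.99 and 6.38 FPKM in YAP-2SA cells. It fell 19.6-fold (log2 fold change -4.10, SE 0.15, limma adjusted p = 6.3e-09), while its ligand NRG1 rose. In YAP-S127A cells, where NRG1 was already 8.13-fold up, ERBB3 was at 81.6, 103 and 85.6 FPKM (log2 fold change -0.35, 95% confidence interval -0.69 to -0.02, limma adjusted p = 0.222). In single libraries the FPKM of EGFR was 0.0318 to 0.0452 of that of ERBB3 in Control and 6.46 to 8.34 times it in YAP-2SA cells. ERBB2, listed with MIR4728, was at 13.9 ± 0.898 FPKM (SD, n = 3) in Control and 21.9 ± 1.57 in YAP-2SA cells, a 1.58-fold difference that is under the fold threshold (limma adjusted p = 1.1e-04). ERBB4 was at or below 0.1 FPKM in all 12 libraries.

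**Figure D3:**
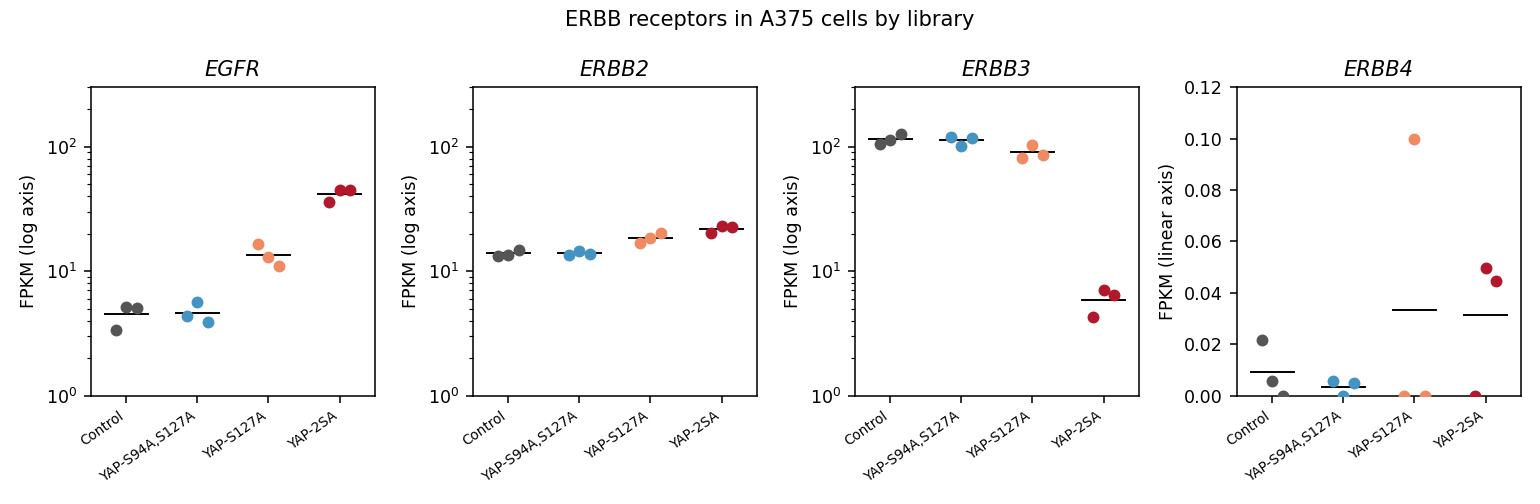
FPKM of the 4 ERBB receptor genes by group, on log axes for EGFR, ERBB2 and ERBB3 and on a linear axis for ERBB4. Points are libraries and bars are means of 3. EGFR is highest and ERBB3 lowest in YAP-2SA cells, where both stand apart from Control, and ERBB4 is at or below 0.1 FPKM.

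**Figure D4:**
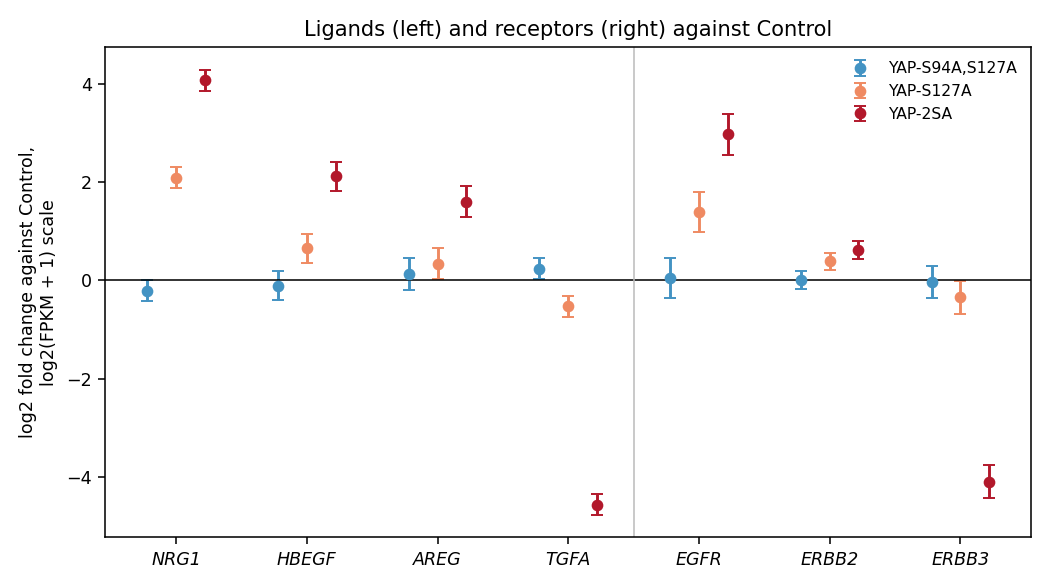
Log2 fold changes against Control on the log2(FPKM + 1) scale for the 4 ligands and 3 receptors that were tested, with 95% confidence intervals from limma. In YAP-2SA cells NRG1 (4.08) and EGFR (2.97) lie above 0 while TGFA (-4.57) and ERBB3 (-4.10) lie below it, and in YAP-S94A,S127A cells all 7 values lie between -0.21 and 0.23.

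The rest of the pathway was read from 5 lists of genes, compared with 15.5% of all loci called in YAP-2SA against Control. Of the receptors and other ligands, 8 genes, 5 were tested, and EGFR and ERBB3 were called. The other neuregulins were low, with NRG2 at 2.87 FPKM in Control and 2.32 in YAP-2SA cells (limma adjusted p = 0.128) and NRG4 at 1.61 and 1.04 FPKM (limma adjusted p = 0.0492, under the fold threshold), and NRG3 was at or below 0.165 FPKM. The fall of ERBB3 and the rise of NRG1 were therefore not accompanied by a called change of NRG2 or NRG4.

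Of 11 genes for ligand shedding, 1 was lower in YAP-2SA cells and none was higher. The lower one was ADAM19, a protease that can cleave neuregulin, at 11.6, 12.3 and 8.57 FPKM in Control and 3.86, 3.28 and 3.48 in YAP-2SA cells (log2 fold change -1.37, SE 0.14, limma adjusted p = 2.0e-05). ADAM15 was 1.94-fold above Control (limma adjusted p = 2.3e-06), under the threshold, and was called against YAP-S94A,S127A cells at 2.00-fold (limma adjusted p = 1.5e-06). ADAM17, the main sheddase of amphiregulin, TGF-alpha and HB-EGF, was at 14.6 FPKM in Control and 15.2 FPKM in YAP-2SA cells (log2 fold change 0.05, 95% confidence interval -0.16 to 0.27, limma adjusted p = 0.696). ADAM10, which sheds EGF and betacellulin, was 1.74-fold lower (limma adjusted p = 1.4e-05), under the fold threshold. ADAM17 and ADAM10 were singled out after their values were seen. The loci of ADAM19 and ADAM15 also list AL049415 and DCST1, whose reads cannot be told apart from theirs. The median log2 fold change of the list was 0.04, beside 0.01 over all loci tested.

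Of 10 genes that attenuate the receptors, 1 was called, LRIG3, which fell 5.04-fold in YAP-2SA cells (log2 fold change -2.04, SE 0.09, limma adjusted p = 2.5e-08). Of 11 adaptor and RAS-RAF genes none was called by limma in any of the 6 comparisons, although 2 had an adjusted p under 0.05 in YAP-2SA against Control, as did 42.3% of all loci tested.

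Of 14 genes that ERK signalling is known to induce, 2 rose and 6 fell in YAP-2SA cells, with a median log2 fold change of -0.80 beside 0.01 over all loci tested. The 2 that rose were FOSL1, an AP-1 subunit (129 to 339 FPKM in the group means, limma adjusted p = 8.5e-06), and DUSP5, a phosphatase of nuclear ERK (7.28 to 21.7 FPKM, limma adjusted p = 2.6e-04). The transcription factor genes EGR1 (16.3 to 1.76 FPKM, limma adjusted p = 8.5e-07) and FOS (3.88 to 0.382 FPKM, limma adjusted p = 3.0e-04) fell. FOS passed the filter on low values only through libraries other than those of YAP-2SA. The feedback inhibitors SPRY4 (106 to 8.85 FPKM, limma adjusted p = 3.1e-08), SPRY2 (147 to 25.5 FPKM, limma adjusted p = 5.2e-09) and DUSP6 (78.6 to 33.3 FPKM, limma adjusted p = 1.3e-04) fell as well, as did IER3 (210 to 48.8 FPKM, limma adjusted p = 6.1e-08). IER3 is listed on 6 loci, and only the locus with the highest mean was used. SPRED1, another feedback inhibitor, was called lower only against YAP-S94A,S127A cells, at 2.00-fold (limma adjusted p = 2.1e-05). In YAP-S127A cells, at a background of 2.47%, limma called none of these 14 against Control, and FOSL1 alone had an adjusted p under 0.05 (0.0392), as did 6.31% of all loci tested, and without Control replicate 3 its adjusted p was 0.11. The counts of genes past both thresholds in all 5 lists, for YAP-2SA and YAP-S127A against Control, were the same without Control replicate 3.

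**Figure D5:**
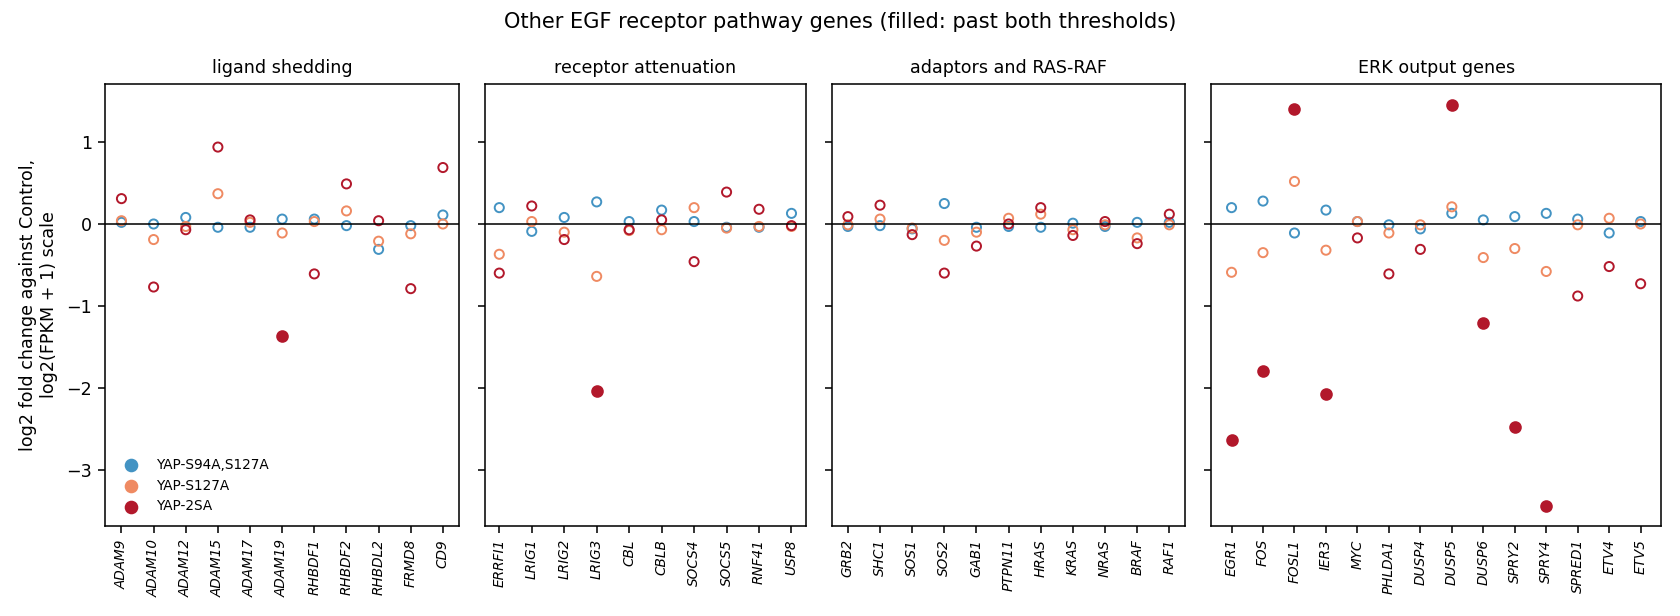
Log2 fold changes against Control, on the log2(FPKM + 1) scale, of the tested genes in 4 lists of the EGF receptor pathway, 1 colour per construct. Filled points passed both thresholds and open points did not. Filled points are ADAM19, LRIG3 and 8 ERK output genes, all in YAP-2SA cells.

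The remaining comparisons that include YAP-2SA called the 4 tested ligands in the same directions as against Control. Between YAP-2SA and YAP-S127A cells NRG1, HBEGF and AREG were called higher, at a background of 5.17%, and TGFA lower, at a background of 5.94%. Between YAP-2SA and YAP-S94A,S127A cells the same 4 were called in the same directions, at a background of 7.81% for higher and 8.1% for lower, with NRG1 51.3-fold, HBEGF 6.44-fold and AREG 5.91-fold higher and TGFA 33.3-fold lower (limma adjusted p from 1.1e-10 to 1.3e-05). YAP-2SA and YAP-S94A,S127A differ in both S94A and S381A, so the comparison of these cells does not isolate TEAD binding. Between YAP-S127A and YAP-S94A,S127A cells NRG1 and HBEGF were called higher, at a background of 2.54%, and AREG and TGFA were not called. These comparisons share libraries with those against Control, so they are not independent of them.

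Marker genes of the melanocytic lineage and of other cell identities also changed in YAP-2SA cells, not all in the same direction. The 7 melanocytic genes summed to 281 to 345 FPKM in Control, 231 to 300 in YAP-S127A and 38.9 to 48.9 in YAP-2SA cells. SOX10 fell (263 to 6.16 FPKM, limma adjusted p = 1.5e-09) and S100B fell (46.9 to 0.807 FPKM, limma adjusted p = 1.1e-09), whereas MITF rose (8.59 to 35 FPKM, limma adjusted p = 1.3e-04). The 3 fibroblast genes summed to 2.37 to 3.55 FPKM in Control, 11.5 to 12.8 in YAP-S127A and 39.2 to 48.3 in YAP-2SA cells, and COL1A1 alone went from 0.322 FPKM in Control to 33.4 FPKM in YAP-2SA cells (limma adjusted p = 8.9e-10). Of these 3, COL3A1 was at 0.208 FPKM in YAP-2SA cells. PDGFRB, at 2.61 FPKM in Control and 10.4 FPKM in YAP-2SA cells, shares its locus with CSF1R and PDGF, whose reads cannot be told apart from its own. The 3 keratinocyte genes summed to 6.24 to 7.62 FPKM in Control and 1.92 to 2.07 in YAP-2SA cells. Among these 3, KRT14 fell (6.87 to 0.434 FPKM, limma adjusted p = 3.8e-07), whereas KRT5 rose (0.0282 to 1.56 FPKM, limma adjusted p = 1.3e-06). KRT5 reached 1 FPKM only in YAP-2SA libraries, COL1A1 only in YAP-2SA and YAP-S127A libraries, and KRT14 in every group but YAP-2SA. The presence of KRT5, COL1A1 and KRT14 among the genes tested thus already depends on these groups. The part of these marker genes in the differences of the ligands was not tested, and in bulk RNA a change in the number of cells of a type and a change in RNA per cell cannot be told apart.

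Loci whose profiles over the 12 libraries were closest to those of the 4 tested ligands were named by the root-mean-square difference of the centred log2(FPKM + 1) values. The closest to TGFA were PMEPA1 (0.115), which encodes an inhibitor of TGF-beta signalling, TNC (0.124), which encodes the matrix protein tenascin-C, and FXYD3 (0.132). The closest to NRG1 were VSTM1 (0.116), the locus of GABRA5 and AK124673 (0.123) and MARCH4 (0.156), whose mean in Control was at most 0.202 FPKM. The closest to HBEGF were SH3BP4 (0.135), DPYSL3 (0.142) and TMEM171 (0.142). The closest to AREG were AHNAK2 (0.0966), FAM131B (0.108) and the locus of CHRNB1, FGF11 and SPEM1 (0.119). These are descriptions of likeness over 4 groups and were not tested.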

How the data were processed

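RNA of 12 A375 libraries, 3 per group, was sequenced by the authors, who aligned the reads to hg19 with Bowtie2 2.0.0 and TopHat2 2.0.4 and assembled transcripts with Cufflinks 2.0.2, according to the methods and the submitters' processing notes. The authors deposited log2(FPKM + 1) values per locus in 1 table of 31588 entries, of which 3 identical ones were removed. The values are not counts, so the depth per library is unknown.

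The members and gene lists were chosen with earlier results of these data known. Samples were grouped by their titles. The 15055 loci that reached an FPKM of 1 in 3 or more libraries were fitted with limma 3.58.1 in R 4.3.3, with 1 mean per group, all 12 libraries and an intensity trend, for 6 comparisons, and p-values were adjusted over all loci tested. A locus was called when that p was under 0.05 and mean FPKM differed more than 2-fold. The fit was tested on simulated data. The genes named are the 7 members, list genes called in any comparison, the 4 ERBB receptors, YAP1 and, per tested member, the 3 closest loci; markers, neighbours, NRG2, NRG3, NRG4, EPGN, ADAM10 and ADAM17 are named outside that rule, the last 6 after their values were seen. Whether replicate numbers pair samples across groups was checked by correlating deviations from the group means. Alternatives were another pseudocount, filters, scalings, fold scales and priors, a fit of the compared libraries alone, the replicate block, sums over repeated rows and each library left out in turn. Gene positions are from GENCODE on GRCh37 and matplotlib 3.10.9 in Python 3.11.15 drew the figures.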

Additional observations from a re-analysis of the deposited data

How the results depend on the processing

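Under every alternative tried, none of the 4 tested members changed direction in any of the 6 comparisons. Direction could change only under the other pseudocount, the scalings, or a library left out of the groups compared. The other alternatives leave the log2 fold change as it is by construction, so they do not test direction. NRG1, HBEGF, AREG and TGFA kept their calls in YAP-2SA cells wherever they were tested. AREG could not be tested with a filter of 5 FPKM. The number of members called in YAP-S127A against Control was 3 without the fold threshold, against 1 with it. In YAP-S127A against YAP-S94A,S127A it was 1 with the fold on the log2(FPKM + 1) scale, against 2 as reported, and 1 to 2 when each library was left out in turn, with HBEGF as the member lost. Of the values of single members under the alternatives, 539 stayed on the same side of the thresholds, 3 came to pass them (HBEGF and TGFA, without a fold threshold) and 4 no longer did (HBEGF). The 539 include values that could not differ. Sums over repeated rows change nothing for members listed on 1 locus each, and dropping the fold threshold can only add calls. No alternative moved the median log2 fold change of all loci by more than 0.0333 from 0.

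Over all loci tested, no pairing of the samples by replicate number was seen. Deviations of libraries with the same number correlated at -0.149 to 0.163 (18 pairs), and those with different numbers at -0.119 to 0.188 (36 pairs). With correlations averaged by replicate number, 5 of 12 libraries had their highest mean with their own number. Single genes did vary with the number. DUSP4, DUSP5, DUSP6, PHLDA1 and SPRY4 of the ERK list were highest in replicate 2 of every group. SPRED1 was lowest in replicate 2 of every group, and MYC followed no such order. In Control, DUSP6 was at 78.8, 92.3 and 64.8 FPKM in replicates 1, 2 and 3. With the replicate block the members called were 4, 1, 0, 4, 2 and 4 in the 6 comparisons, each equal to the count without it. Calls of the list genes with the block are not given, and their p-values come from the fit without it. What limits these results is that no more than 1 transduced population is described per construct, and that the depth is unknown. Levels of EREG, BTC and EGF were under the filter on low values. The comparisons against Control share its libraries, 1 of which goes against its label.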
